A study of Mus musculus with 128 samples.

Results

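Hepatocytes taken from mouse livers at E15.5 (embryonic days) and cultured for 2 days lost 1601 sites of open chromatin when PD was in the medium, whether or not their genotype was labelled Pard3HMKO. These sites came from ATAC-seq, in which a transposase cuts accessible DNA. The peaks of 8 libraries were merged into 63719 regions: 2 libraries each of Pard3WT control, Pard3WT PD, Pard3HMKO control and Pard3HMKO PD. A region belonged to the set when all 4 control libraries and none of the 4 PD libraries had a peak over it, which held for 2.51% of the merged regions. Closed by PD means here that no peak with a score of at least 50 was listed, since coverage below that score was not used. The regions were thus chosen by the peak calls of the PD contrast itself, so the loss of these peaks with PD is a description and carries no test.

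Among the 18986 regions with a peak in all 4 controls, 1601 had no PD peak, 1228 had 1, 1214 had 2, 1713 had 3 and 13230 had all 4. Just outside the rule, 2467 regions had no PD peak and lacked a peak in 1 of the 4 controls. Peak scores were the authors' own. The lowest of the 4 control scores had a median of 66.75 in the set, 68.5 in regions with 1 PD peak and 151 in regions with all 4. It ran from 50.01 to 237.89 in the set, so many of its regions lie near the score at which the lists begin. The PD libraries also held fewer peaks in all, 24270, 27525, 24330 and 31877, against 35879, 45898, 26293 and 35301 in the controls. Their means were 27001 ± 3589 and 35843 ± 8013 (SD, n = 4 each; exact permutation test, 2-sided, p = 0.0857). With 24270 peaks kept in every library, 764 regions met the rule. Without Pard3HMKO control replicate 1 the rule asked for 3 controls and 2758 regions met it, and without Pard3WT control replicate 1 2457 did.

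The study concerns PAR3, a scaffold protein of cell polarity encoded by Pard3, in the developing liver. All mice in the groups compared here were C57BL/6 and carried Foxa3-Cre, whose driver is a gene of endoderm and hepatocytes. This held for the control lines Pard3WT and YapWT too. Pard3HMKO added Pard3-fl/fl and YapHMKO added Yap-fl/fl. Cultured hepatocytes received control medium, PD, TPPB (a protein kinase C activator), U0126 (an inhibitor of the kinase MEK) or TPPB with PD, and livers were taken uncultured at E17.5. ATAC-seq used 1000 cells per library, with 2 libraries per cultured group and 3 per E17.5 group. RNA was read from single cells with Smart-seq3xpress and summed here per library, 2 libraries per group. To estimate the spread, the E17.5 RNA tests also used uncultured libraries of other ages before and after birth. Among these libraries were lines with another Cre driver, AlfpCre, and lines labelled Pard3WT YapWT and Pard3HMKO YapHMKO. PD and TPPB had ATAC-seq in the Pard3 lines only, and U0126 had none.

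Cultured RNA libraries held 14 to 32 cells and 6851744 to 18862265 reads, and E17.5 libraries 31 to 60 cells and 12581912 to 57022559 reads. No label says that libraries of a group came from separate animals, so their p-values measure a spread between samples that may be technical. Whole-gene counts of Pard3 were not called lower in Pard3HMKO, either in culture (log2 fold change −0.50 ± 0.20, adjusted p = 0.187) or at E17.5 (0.50 ± 0.21, adjusted p = 0.127, edgeR quasi-likelihood test). Yap1 stood at 1.29 and 7.56 CPM (counts scaled to the same library total) in cultured YapHMKO controls against 186 and 173 in YapWT. At E17.5 it stood at 44.9 and 44.4 CPM in the libraries labelled YapHMKO against 26.4 and 29.8 in YapWT, which goes against that label. Summed over 6 hepatocyte marker genes, PD libraries held 30290 to 54640 CPM and controls 9260 to 74910.

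Open chromatin marks DNA that transcription factors can reach, and sites far from start sites are often enhancers. ERK, the kinase below MEK in the receptor tyrosine kinase pathway, switches on early-response and ETS factor genes together with its own feedback inhibitors. TEAD factors, the DNA-binding partners of the coactivator YAP, drive genes of growth and cell shape, and AP-1 factors take part in many of the same responses. Before birth, hepatoblasts become hepatocytes or bile duct cells, and the metabolic genes of hepatocytes come up.

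Few of the regions lay over a start site. Of 1538 on chromosomes covered by the RefSeq promoter table, 97 (6.31%) overlapped one, against 44.4% of the other regions open in all 4 controls. The table is not complete, so these are lower limits. In 71 cases, from 66 genes, the whole promoter window of 250 bases before to 50 after the start fell inside a region of the set. The TEAD motif GGAATG was present on either strand in 14 of these windows (19.7%), in 13.6% of all 21263 windows in the table and in 10.8% of windows inside the other regions open in all controls. For the AP-1 motif TGANTCA the shares were 7.04%, 6.99% and 4.31%, and for the ETS motif CCGGAA 7.04%, 18.7% and 33.1%. A GC box (GGGCGG) was found in 57.7%, 46.2% and 71.5%. CTCF (AGGGGGC) matches stood in 21.1%, 12.9% and 17.1%. No searched motif contains another, but CCGGAA and GGAATG can share 4 letters and so can AGGGGGC and GGGCGG, and a match is a run of letters, not a shown binding site.

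Promoter windows that lay inside a region of the set are shown for 5 genes, chosen in different ways, to set TEAD matches beside their values. Ankrd1 encodes a nuclear and sarcomeric ankyrin repeat protein and is a textbook YAP and TEAD target. Stc2 (a secreted glycoprotein) and Mtcl1 (a microtubule-linking protein) fell under the rule for genes lower with PD. Camkk2 encodes a kinase that activates AMPK, and its region was open in all 12 E17.5 libraries. Wtip, a LIM domain protein of cell junctions, was picked after its motifs were seen. Sequences are RefSeq, build GRCm38.p6, 5′ to 3′ on the minus strand that each gene is read from, with TEAD matches in capitals.
Ankrd1, chr19:36119795-36120094: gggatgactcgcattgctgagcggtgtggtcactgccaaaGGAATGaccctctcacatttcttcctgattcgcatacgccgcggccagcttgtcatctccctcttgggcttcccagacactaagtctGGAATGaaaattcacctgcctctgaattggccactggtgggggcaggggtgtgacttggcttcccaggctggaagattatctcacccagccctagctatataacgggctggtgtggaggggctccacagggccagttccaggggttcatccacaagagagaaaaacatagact
Wtip, chr7:34133219-34133518: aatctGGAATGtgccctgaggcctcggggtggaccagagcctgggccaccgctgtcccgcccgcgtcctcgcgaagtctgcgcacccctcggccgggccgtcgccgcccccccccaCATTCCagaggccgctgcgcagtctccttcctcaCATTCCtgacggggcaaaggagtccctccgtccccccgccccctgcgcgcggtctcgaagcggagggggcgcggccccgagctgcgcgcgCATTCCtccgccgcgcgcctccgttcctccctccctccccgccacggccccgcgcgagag
Stc2, chr11:31370012-31370311: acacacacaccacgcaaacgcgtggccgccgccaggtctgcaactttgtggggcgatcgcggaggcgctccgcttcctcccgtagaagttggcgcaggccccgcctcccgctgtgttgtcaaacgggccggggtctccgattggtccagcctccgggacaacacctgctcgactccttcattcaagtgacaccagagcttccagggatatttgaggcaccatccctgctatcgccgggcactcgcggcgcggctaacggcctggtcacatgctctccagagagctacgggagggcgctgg
Mtcl1, chr17:66449701-66450000: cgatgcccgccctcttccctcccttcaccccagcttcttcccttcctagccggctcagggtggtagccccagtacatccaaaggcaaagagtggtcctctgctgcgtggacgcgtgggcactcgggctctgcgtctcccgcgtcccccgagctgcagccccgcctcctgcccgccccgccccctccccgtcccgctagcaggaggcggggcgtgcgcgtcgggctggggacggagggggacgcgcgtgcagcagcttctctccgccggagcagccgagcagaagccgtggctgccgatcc
Camkk2, chr5:122779361-122779660: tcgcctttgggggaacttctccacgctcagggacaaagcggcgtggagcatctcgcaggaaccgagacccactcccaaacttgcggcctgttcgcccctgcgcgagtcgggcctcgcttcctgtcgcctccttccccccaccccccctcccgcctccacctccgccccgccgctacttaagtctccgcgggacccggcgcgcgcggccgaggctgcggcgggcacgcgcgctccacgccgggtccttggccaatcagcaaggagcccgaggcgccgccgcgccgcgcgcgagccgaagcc
The Ankrd1 window held 2 TEAD matches and the Wtip window 4, and the other windows shown held neither a TEAD nor an AP-1 match.

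Of all 1601 regions, 937 (58.5%, Wilson 95% interval 56.1 to 60.9) touched the span of a protein-coding gene, against 78.2% of the other regions open in all controls. Another 10.6% lay outside a span but within 10 kb, 23.3% at 10 to 100 kb and 121 regions (7.56%) over 100 kb away, where the other regions open in all controls had 2.50%. The median distance to a listed start site was 35.4 kb against 4.47 kb. The 766 regions with the opposite pattern, a peak in all 4 PD libraries and in no control (1.2% of all merged regions), touched a gene span in 63.2% and lay at a median of 24.0 kb. Median widths were 587 bases in the set, 587 in the opposite set and 973 in the other regions open in all controls. Every autosome held regions of the set, which made up 6.98% (chromosome 9) to 10.7% (chromosome 18) of those open in all controls, and X held 14 (3.75%).

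**Figure D1:**
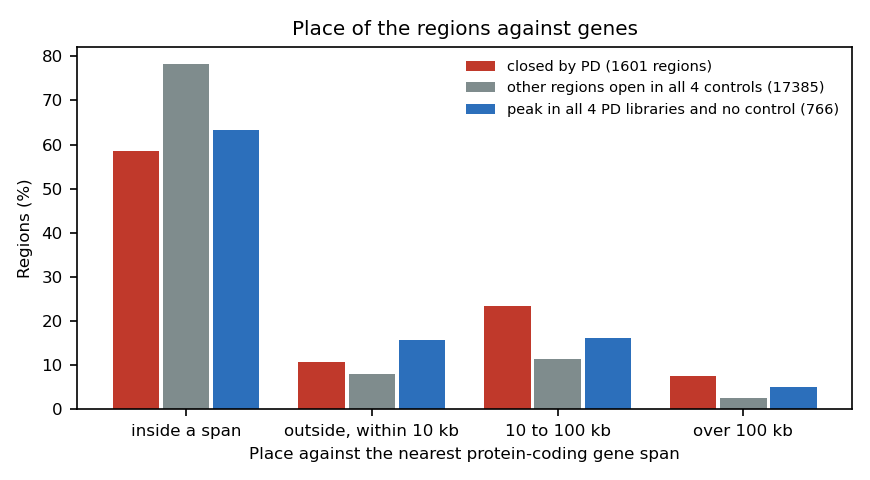
Bars give the percent of regions inside a gene span, outside it but within 10 kb, at 10 to 100 kb and over 100 kb, for the 1601 regions closed by PD, the 17385 other regions open in all 4 controls and the 766 with a peak in all 4 PD libraries and no control. Inside a span stood 58.5%, 78.2% and 63.2%, and over 100 kb 7.56%, 2.50% and 5.09%.

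The regions that PD closed mostly stayed open with TPPB. In Pard3WT cultures given TPPB, 1222 (76.3%) and 1436 (89.7%) of the 1601 had a peak in the 2 libraries, which listed 26543 and 34216 peaks. Both libraries had a peak over 1167 regions (72.9%), 1 of them over 324 and neither over 110 (6.87%). Of all merged regions 35.3% had a peak in both TPPB libraries, and of all regions open in the 4 controls 88.4% did. Neither library had one over 48.8% and 2.27% of these. The other regions open in all controls had TPPB peaks in 90.9% and 97.1%, and the opposite set in 2.22% and 6.40%. The TPPB share was larger at higher control scores: 77.4% on average for lowest scores of 50 to 75 and 98.5% for scores of 100 to 150, where the other regions open in all controls had 98.6%.

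In livers at E17.5 most of these regions were not open. The 3 Pard3WT libraries had peaks over 15.2%, 18.9% and 13.9% of them, and the 3 YapWT libraries over 16.2%, 14.7% and 12.9%. Pard3HMKO libraries had peaks over 30.2%, 28.3% and 30.5%, and the libraries labelled YapHMKO over 25.2%, 25.7% and 26.4%. Each group of 3 with a deletion in its label thus lay above each group of 3 controls without overlap, at means of 29.7% ± 1.2 and 25.8% ± 0.594 against 16% ± 2.60 and 14.6% ± 1.66 (SD, n = 3). The other regions open in all culture controls stood at 83.5% to 87.8% in all 12 libraries, and the opposite set ran the other way, from 65.8% ± 2.74 in Pard3WT to 36.2% ± 2.61 in Pard3HMKO. E17.5 libraries held 35144 to 44506 peaks, and the ranges of Pard3WT (38132 to 44506) and Pard3HMKO (38751 to 41893) overlapped.

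**Figure D2:**
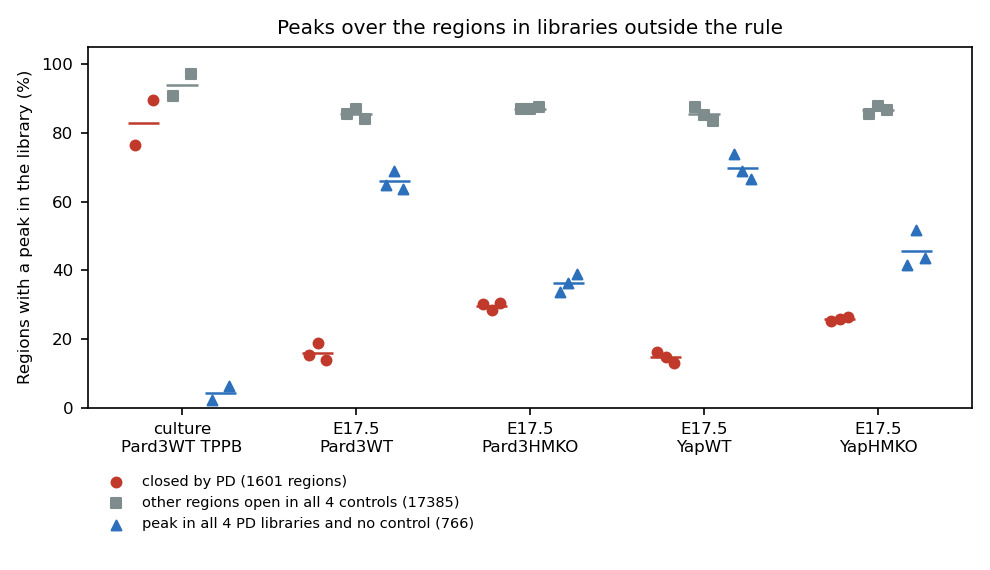
Each point is 1 library and gives the percent of regions with a peak, in TPPB cultures and the 4 E17.5 groups, for regions closed by PD, other regions open in all 4 controls and regions with a peak in all 4 PD libraries and no control. Bars are group means. For the regions closed by PD the E17.5 means are 16% in Pard3WT, 29.7% in Pard3HMKO, 14.6% in YapWT and 25.8% in the libraries labelled YapHMKO.

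Counted per region, 832 of the 1601 (52.0%) had no peak in any E17.5 library and 40 (2.50%) had one in all 12, where the other regions open in all controls had 4.42% and 69.9%. A peak in all 3 Pard3HMKO and in no Pard3WT library was found over 133 regions (8.31%), against 2.32% of all merged regions and 2.70% of those open in all culture controls. The reverse held for 10 (0.625%, against 2.46% and 0.795%). For the libraries labelled YapHMKO against YapWT the counts were 115 (7.18%, against 1.91% and 2.35%) and 11 (0.687%, against 1.83% and 0.632%). A peak in all 6 libraries with a deletion in the label and in none of the 6 others was found over 83 regions (5.18%, against 1.14% and 1.60%), and the reverse over 3 (0.187%, against 0.672% and 0.184%). Within 1 range of culture scores the order was the same: of 167 regions with a lowest control score of 100 to 150, 10.8% had a peak in Pard3WT, 29.9% in Pard3HMKO, 7.98% in YapWT and 25.1% in the libraries labelled YapHMKO, where the other regions of that score had 85.6%, 88.5%, 85.4% and 88.2%.

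Joining both readouts, 651 regions (40.7%) had a peak in both TPPB libraries and none at E17.5. Another 48 had a peak in neither, 24 had both TPPB and all 12 E17.5 peaks, and 6 had all 12 E17.5 peaks and none with TPPB. These 6 lay nearest to Foxp1 (220 kb), Rrm2 (10.8 kb), Trim2 (36.6 kb) and inside the spans of Srd5a2, Camkk2 and Nccrp1. The Foxp1 region scored 52.67 to 84.46 in the 4 culture controls and 104.59 to 228 in the E17.5 libraries. Foxp1 encodes a forkhead factor, Rrm2 a subunit of ribonucleotide reductase and Srd5a2 a steroid reductase.

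Of the 12 regions with the highest lowest control scores, 6 had no peak in any E17.5 library and 6 had one in at least 1. A region inside Mctp2, a gene for a calcium-binding membrane protein (chr7:72110519-72111137, mm10), scored 301.93 and 381.84 in Pard3WT controls and 237.89 and 317.27 in Pard3HMKO controls. It scored 229.54 and 317.83 with TPPB and had no peak at E17.5. All 12 had peaks in both TPPB libraries. The region nearest to Rad54b, a DNA repair gene, had peaks in 9 of the 12 E17.5 libraries. The region inside Iqck (chr7:118929574-118930510) scored 209.38, 234.88, 199.63 and 437.64 in the controls. At E17.5 it scored 119.96, 217.14 and 226.79 in Pard3HMKO and 141.61, 176.87 and 153.54 in the libraries labelled YapHMKO, with no peak in either control group.

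**Figure D3:**
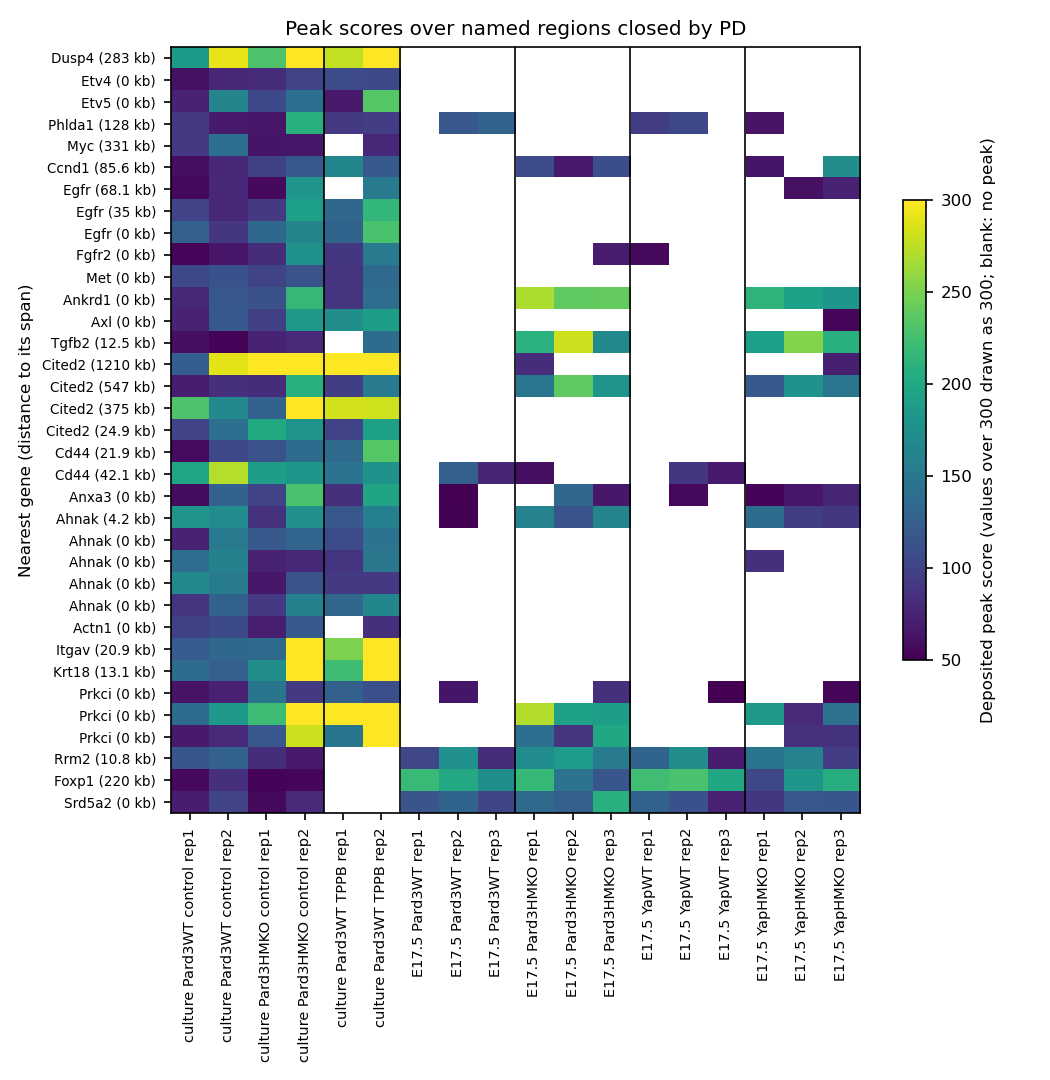
The heatmap gives the authors' peak score for named regions in 18 ATAC libraries, the 4 culture controls, 2 TPPB and 12 E17.5 libraries. Rows carry the nearest gene and its distance in kb, blanks mean that no peak was listed, and scores over 300 are drawn as 300. The Ankrd1 and Tgfb2 rows, the Cited2 row at 547 kb and the second Prkci row show peaks in the E17.5 libraries with a deletion in the label and blanks in the controls, and the Etv4, Etv5 and Dusp4 rows are blank at E17.5.

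The nearest genes numbered 1395, of which 1370 were in the count table. A single region was nearest to 1186 of them, 2 regions to 150 and 3 or more to 34. In culture 1151 were tested and at E17.5 1179. The Yap lines took no part in the choice of regions. With PD in YapWT, 205 of the 1151 (17.8%) were called lower and 102 (8.86%) higher at an adjusted p below 0.05, where 8.73% and 8.77% of all 16715 genes were. With PD in YapHMKO, 172 (14.9%) were lower and 135 (11.7%) higher, where 8.76% and 11.2% of all genes were. Medians of the log2 fold change were −0.35 and −0.25 for nearest genes and −0.03 and −0.05 for all genes. RNA was summed over the cells of a library for these tests, so fewer cells of a type and less RNA per cell were not separated here.

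As a comparison set, the share called lower was 11.05% and 11.55% among the 11019 genes nearest to other regions open in all controls. Genes nearest to the opposite set were called higher in 22.9% (YapWT) and 31.7% (YapHMKO) of cases. In the Pard3 lines, which supplied the rule, 138 nearest genes (12.0%, all genes 6.80%) were lower and 94 (8.17%, all genes 7.99%) higher in Pard3WT. In Pard3HMKO 98 (8.51%, all genes 5.51%) were lower and 114 (9.90%, all genes 9.01%) higher. These last 4 counts are the same contrast as the rule and are given as a description. The PD effect was more positive in Pard3HMKO than in Pard3WT for 11 nearest genes (0.956%, all genes 0.622%) and more negative for 2 (0.174%, all genes 0.185%), by the interaction term. Leaving out the cells that held markers of other cell types (13.6% to 76.5% of a culture library) took the YapWT counts to 81 lower and 58 higher (7.35% and 5.26%, all genes 3.59% and 5.00%). A cell was marked when at least 50% of the genes of an erythroid, myeloid, stellate, endothelial or mesothelial list had any read. This took away 71.4% of the 14 cells of YapWT control replicate 2. The part of this loss of cells in the smaller counts was not tested. Without YapWT control replicate 2, PD replicate 1 or PD replicate 2 there were 123, 121 and 117 lower. In YapHMKO 94 were lower without control replicate 1 and 93 without PD replicate 2.

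U0126 gave a like picture in the 2 lines that received it, sharing their 2 control libraries with PD. In Pard3WT 138 nearest genes (12.0%, all genes 5.74%) were called lower and 84 (7.30%, all genes 7.39%) higher. In Pard3HMKO 150 (13%, all genes 7.48%) were lower and 122 (10.6%, all genes 10.3%) higher. With TPPB the higher side stood out instead. In Pard3WT 43 nearest genes (3.74%, all genes 1.44%) were higher and 52 (4.52%, all genes 5.35%) lower, and in YapWT 92 (7.99%, all genes 3.29%) were higher and 65 (5.65%, all genes 7.15%) lower. The TPPB comparisons share their controls with PD too. Leaving out 1 library left 16 to 31 higher in Pard3WT, the fewest without TPPB replicate 2, and 40 to 74 in YapWT, the fewest without control replicate 1. Hepatocyte markers summed to 4462 to 8962 CPM with TPPB, below all controls, and the part of this in the calls was not tested. In each of 11 settings of the fit and libraries, the share called lower with PD or U0126 and the share called higher with TPPB exceeded that of all genes tested in the same setting.

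Between Pard3HMKO and Pard3WT controls in culture, 27 nearest genes (2.35%, all genes 1.54%) were higher and 37 (3.22%, all genes 3.36%) lower. At E17.5 the nearest genes stood close to the background: 109 (9.25%, all genes 7.09%) were higher in Pard3HMKO and 106 (8.99%, all genes 7.86%) lower, with medians of 0.00 in both. Without cells that held markers of other types, which were 40.0% to 67.7% of these libraries, 3 were higher and 13 lower (0.284% and 1.23%, all genes 0.525% and 1.31%). Among 111 genes tested nearest to the regions open in all 3 Pard3HMKO and no Pard3WT library, 8 were higher and 6 lower at E17.5 (7.21% and 5.41%). These shares lie near those of all genes. Leaving out Pard3WT replicate 2 gave 66 higher, and leaving out Pard3HMKO replicate 2 gave 66 higher and 65 lower. Summed hepatocyte markers stood at 134500 and 181900 CPM in Pard3HMKO and 355900 and 379200 in Pard3WT at E17.5, and 10 stellate and mesenchymal markers at 107 and 116 against 46.2 and 52.8, with Pdgfra at 0 in Pard3WT. The part of stellate cells in these calls was tested only by leaving out the marked cells. That of the hepatocyte markers was not tested, since the hepatocyte list marked no cells.

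**Figure D4:**
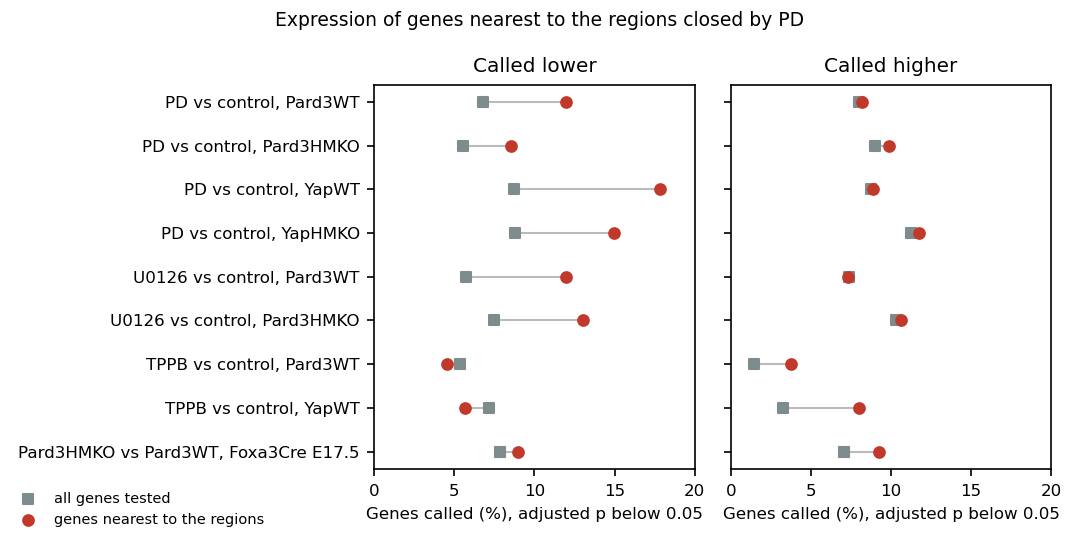
Points give the percent of genes called lower and higher at an adjusted p below 0.05, for genes nearest to regions closed by PD and for all genes tested. Each RNA comparison is shown except that of Pard3HMKO with Pard3WT controls in culture. Called lower with PD stand 17.8% against 8.73% in YapWT and 14.9% against 8.76% in YapHMKO, and called higher with TPPB 3.74% against 1.44% in Pard3WT and 7.99% against 3.29% in YapWT.

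Genes were also counted by how many such regions lay nearest to them. Of 30 tested genes with 3 or more regions, 12 were lower and 1 higher with PD in YapWT (40.0% and 3.33%), and 12 and 1 in YapHMKO. Over all genes these shares were 8.73% and 8.77% in YapWT and 8.76% and 11.2% in YapHMKO. With 1 region the shares lower were 16.8% and 13%, and with 2 they were 20.5% and 23.5%. With U0126 11 of the 30 were lower in Pard3WT and 12 in Pard3HMKO (36.7% and 40%, all genes 5.74% and 7.48%). With TPPB 5 were higher and 0 lower in Pard3WT (all genes 1.44% and 5.35%), and 6 and 1 in YapWT (all genes 3.29% and 7.15%). Of 77 tested genes with a region over their start site, 18 were lower and 0 higher with PD in YapWT (23.4% and 0%, all genes 8.73% and 8.77%) and 5 and 2 in YapHMKO (6.49% and 2.60%, all genes 8.76% and 11.2%). The share called lower at start sites thus lay above that of all genes in YapWT and below it in YapHMKO. No difference between these groups of genes was tested.

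Among ERK feedback and early-response genes, 6 of 21 listed genes lay nearest to a region of the set: Dusp4, Etv4, Etv5, Phlda1, Ccnd1 and Myc. Of the 19 tested in the list, 15 fell and 0 rose with PD in YapWT, and 9 fell and 1 rose in YapHMKO, with medians of −4.33 and −1.96. Of the 6 nearest genes, 4 were called lower in YapWT and 4 in YapHMKO. Over all genes 8.73% were called lower and 8.77% higher with PD in YapWT, and 8.76% and 11.2% in YapHMKO. These shares stand beside the PD counts of the lists below as well. Etv5 and Dusp4, like Anxa3 and Cdkn2b below, were also named for their PD calls in the 4 lines. The PD values and PD p-values of these genes are thus a description and not a test. With U0126 14 of the 19 fell in Pard3WT and 12 in Pard3HMKO (all genes 5.74% and 7.48%). TPPB left 3 higher and 1 lower in Pard3WT (all genes 1.44% and 5.35%), and 3 and 0 in YapWT (all genes 3.29% and 7.15%).

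Etv4 and Etv5 encode ETS factors of the same subfamily that respond to FGF and ERK signals. The Etv4 region (chr11:101776602-101777305, inside the gene span) scored 61.69, 78.86, 82.08 and 100.18 in the controls and 108.13 and 105.1 with TPPB, and had no E17.5 peak. Etv4 stood at 7.42 and 11.8 CPM in YapWT controls and 0.498 and 0.611 with PD, a log2 fold change of −4.10 ± 0.52 (adjusted p = 8.69e-06). In YapHMKO it stood at 39.7 and 56.3 CPM and at 3.69 and 3.15 with PD (−3.81 ± 0.46, adjusted p = 2.87e-06). In Pard3WT it went from 4.65 and 4.18 CPM to 0.205 and 0.107 with PD and 28.2 and 30.5 with TPPB (2.73 ± 0.44, adjusted p = 0.000241), and from 23.0 and 27.1 in Pard3HMKO controls to 4.40 and 8.81 with PD. All PD libraries of a line lay below and all TPPB libraries above their controls. Cultures given TPPB with PD held 0 reads of Etv4. At E17.5 it was at 0.150 CPM or less in every library.

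Etv5 had its region inside the gene span (chr16:22389098-22389585), with control scores of 73.76, 163.71, 105.23 and 141.44, TPPB scores of 67.2 and 233.78 and no E17.5 peak. In YapWT it fell from 9.08 and 8.41 CPM to 0 and 0.153 with PD, that is from 163 reads to 1 read, a ratio of 176 (95% counting interval 31.1 to 6988). In YapHMKO it went from 26.0 and 26.2 CPM to 4.27 and 4.05 (−2.65 ± 0.76, adjusted p = 0.0155). Pard3WT controls held 22.9 and 13.2 CPM, PD libraries 0.103 and 0, U0126 libraries 0 and 0.104 and TPPB libraries 19.9 and 23.2. In Pard3HMKO the values were 27.5 and 23.3 in controls, 7.61 and 7.46 with PD and 10.8 and 1.25 with U0126 (−2.06 ± 0.73, adjusted p = 0.0565). At E17.5 Etv5 was higher in Pard3HMKO, 3.34 and 7.46 CPM against 0.384 and 0.8 (3.13 ± 0.50, adjusted p = 1.95e-05), and its region had no peak there. The libraries labelled YapHMKO held 6.97 and 6.08 CPM and YapWT 0.667 and 0.360.

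Phlda1, a pleckstrin homology protein induced by ERK, lay 128 kb from its region (chr10:111636843-111637794). That region scored 92.75, 67.8, 65.44 and 208.9 in the controls, and at E17.5 had peaks in 2 of 3 Pard3WT and 2 of 3 YapWT libraries, 1 library labelled YapHMKO and no Pard3HMKO library. Phlda1 went from 66.5 and 134 CPM to 8.16 and 2.29 with PD in YapWT (−4.19 ± 0.55, adjusted p = 3.40e-05) and from 282 and 191 to 140 and 88.8 in YapHMKO (−1.05 ± 0.46, adjusted p = 0.126). In Pard3WT it stood at 63.3 and 73.8 CPM in controls, 0.924 and 0.428 with PD, 1.39 and 0.415 with U0126 and 179 and 164 with TPPB. With TPPB in YapWT it rose to 356 and 441 (1.99 ± 0.47, adjusted p = 0.00976). At E17.5 the transcript was lower in Pard3HMKO, 18.9 and 23.0 CPM against 68.0 and 60.7 (−1.62 ± 0.44, adjusted p = 0.00959).

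Dusp4, a nuclear phosphatase that dephosphorylates ERK, had one of the 12 strongest regions, 283 kb away (chr8:34523677-34524396), with scores of 186.01, 291.82, 229.88 and 309 in controls, 277.29 and 318.6 with TPPB and no E17.5 peak. With PD it went from 104 and 66.0 CPM to 8.05 and 1.35 in YapHMKO (−4.16 ± 1.24, adjusted p = 0.0285) and from 7.23 and 19.1 to 1.2 and 0.611 in YapWT (−3.80 ± 1.33, adjusted p = 0.0646). In Pard3WT its controls held 2.86 and 0 CPM and its PD libraries no read, at least 13.3-fold lower against a floor of 3 reads over the group. TPPB libraries held 17.9 and 25.6 CPM (3.84 ± 1.27, adjusted p = 0.0978).

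Myc and Ccnd1, the genes of a growth-promoting transcription factor and of cyclin D1, had regions 331 kb and 85.6 kb away. Myc fell with PD in YapWT, from 88.7 and 200 CPM to 49.6 and 52.6 (−1.50 ± 0.33, adjusted p = 0.00284), and in YapHMKO, from 288 and 219 to 46.2 and 78.9 (−2.02 ± 0.33, adjusted p = 0.000144). In Pard3WT it stood at 121 and 153 CPM in controls and 120 and 94.5 with PD, so groups there came close, and rose with TPPB to 418 and 460 (1.68 ± 0.32, adjusted p = 0.00191). The Ccnd1 region (chr7:145025432-145025940) was open at E17.5 in all 3 Pard3HMKO libraries (107.8, 67.26 and 110.13), in 2 libraries labelled YapHMKO and in no control. Ccnd1 itself stood at 49.3 and 69.1 CPM in Pard3HMKO at E17.5 against 4.06 and 6.20 (3.51 ± 0.24, adjusted p = 2.56e-12). With PD it was not called (adjusted p of 0.226 in YapWT and 0.298 in YapHMKO), with 4.79 and 28.0 CPM in YapWT controls and 8.06 and 4.13 with PD.

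Receptors that feed ERK differed among themselves. Of 25 listed receptors and kinases, Egfr, Met, Fgfr2, Araf and Sos2 lay nearest to a region, and in the list 4 fell and 4 rose with PD in YapWT and 2 fell and 4 rose in YapHMKO. Egfr, the epidermal growth factor receptor, had 3 regions: 68.1 kb away, 35.0 kb away and inside its span. The 2 nearer ones scored 77.76 to 191.53 and 89.91 to 164.13 in the controls and had no E17.5 peak, and the farthest had peaks in 2 libraries labelled YapHMKO. Egfr fell with PD from 37.8 and 54.0 CPM to 4.38 and 4.43 in YapWT (−3.38 ± 0.50, adjusted p = 5.24e-05) and from 71.3 and 46.9 to 7.27 and 5.85 in YapHMKO (−3.17 ± 0.49, adjusted p = 5.05e-05). U0126 took it from 34.3 and 45.4 CPM to 1.32 and 1.35 in Pard3WT (−4.89 ± 0.55, adjusted p = 1.97e-06) and from 49.0 and 61.1 to 12.2 and 5.62 in Pard3HMKO (−2.61 ± 0.47, adjusted p = 0.000333), beside 0.924 and 1.07 and 8.69 and 22.7 with PD. TPPB libraries stood above their controls, at 58.3 and 69.5 in Pard3WT and 92.5 and 108 in YapWT, without passing the test (adjusted p of 0.452 and 0.122). At E17.5 the 2 genotypes did not overlap, at 37.4 and 56.3 in Pard3WT and 30.5 and 12.7 in Pard3HMKO (adjusted p = 0.0916).

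Met, the hepatocyte growth factor receptor, rose instead with PD in YapWT, from 77.5 and 48.5 CPM to 106 and 123 (0.86 ± 0.29, adjusted p = 0.0411), and the region inside it is one of those closed by PD in the Pard3 lines. In YapHMKO it went from 58.1 and 80.4 to 86.2 and 150 (0.77 ± 0.29, adjusted p = 0.0634). Fgfr2, a fibroblast growth factor receptor, fell in YapWT (−2.83 ± 0.96, adjusted p = 0.0498), where controls held 8.89 and 46.4 CPM and PD libraries 7.17 and 0.306. It fell with U0126 in Pard3WT from 18.0 and 15.8 to 2.42 and 0.727 (−3.37 ± 1.00, adjusted p = 0.0313).

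**Figure D5:**
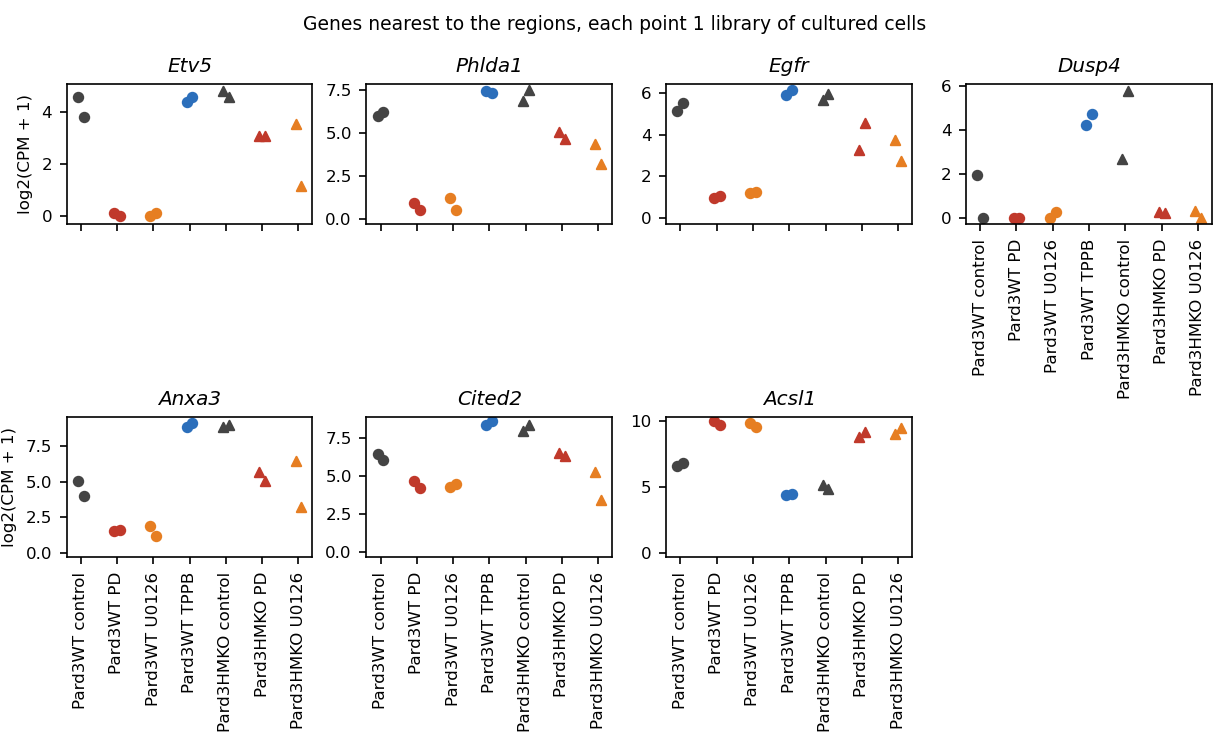
Points give log2(CPM + 1) per library for 7 nearest genes in the Pard3 lines, with Pard3WT control, PD, U0126 and TPPB and Pard3HMKO control, PD and U0126. Etv5, Phlda1, Egfr, Dusp4, Anxa3 and Cited2 stand lower with PD and U0126 than in Pard3WT controls, but for Dusp4, whose second control library is at 0, and Acsl1 stands higher.

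Genes of cell shape and adhesion formed the longest list. Of 37 listed, 9 (24.3%) lay nearest to a region, among them Anxa3, S100a11, Actn1, Itga6, Itgav, Itgb6, Cd44 and Ezr. The share was 28.6% in the ERK feedback list and 6.37% over all 21887 protein-coding genes. Most other lists stood above all genes too, from 16.7% (polarity and junction) to 25% (YAP and TEAD targets). The AP-1 list, with 1 of 15 (Bach2, 6.67%), and the hepatocyte maturation list, with 0, did not. The list had 16 lower and 1 higher with PD in YapWT and 14 and 0 in YapHMKO, and 5 of the 9 nearest genes were lower in each. With TPPB 10 of the list were higher and 1 lower in YapWT (all genes 3.29% and 7.15%), with 5 of the 9 higher. With U0126 5 of the 9 were lower in Pard3WT and 5 in Pard3HMKO (all genes 5.74% and 7.48%).

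Anxa3, an annexin that binds calcium and membranes, rose and fell with the treatments. YapWT controls held 10.4 and 37.4 CPM, PD libraries 1.39 and 0.917 (−4.30 ± 1.07, adjusted p = 0.0119) and TPPB libraries 396 and 353 (3.98 ± 0.86, adjusted p = 0.00737). In YapHMKO it went from 141 and 218 to 1.75 and 2.70 (−6.34 ± 1.02, adjusted p = 0.000412). Pard3WT held 32.4 and 14.9 CPM, 1.85 and 2.03 with PD, 478 and 572 with TPPB, and 3.27 and 0.953 with TPPB and PD together. Pard3HMKO controls stood at 465 and 521, above Pard3WT controls (4.37 ± 0.87, adjusted p = 0.00871), and at 50.4 and 32.5 with PD. At E17.5 all libraries were at 1.49 CPM or less.

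Cd44, a hyaluronan receptor, had regions 21.9 kb and 42.1 kb away, the second one of the 12 strongest. It went from 130 and 236 CPM to 27.9 and 3.38 with PD in YapHMKO (−3.53 ± 0.81, adjusted p = 0.00565) and from 13.2 and 13.2 to 2.19 and 1.22 in YapWT (−2.89 ± 0.96, adjusted p = 0.0504). TPPB raised it to 367 and 449 in YapWT (4.95 ± 0.86, adjusted p = 0.00138) and from 8.85 and 2.35 to 215 and 101 in Pard3WT (4.77 ± 0.87, adjusted p = 0.00255). Itgav, the integrin alpha V chain, fell with PD from 76.5 and 89.96 CPM to 18.4 and 33.0 in YapWT (−1.70 ± 0.29, adjusted p = 0.000234) and from 190 and 170 to 33.6 and 30.8 in YapHMKO (−2.48 ± 0.29, adjusted p = 1.83e-06). Ezr, which links actin to the membrane, fell from 69.7 and 79.5 to 15.4 and 21.6 in YapWT (−2.02 ± 0.47, adjusted p = 0.00509) and was higher in Pard3HMKO at E17.5, 10.4 and 11.7 against 6.32 and 3.29 (1.22 ± 0.32, adjusted p = 0.00602). No library of a PD group overlapped its controls for these 3 genes in either Yap line.

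Ahnak, the gene of a very large scaffold protein under the membrane, had 5 regions, more than any other gene, of which 1 lay 4.2 kb away and 4 inside its span. The outer one was open at E17.5 in all 3 Pard3HMKO libraries (161.26, 114.83 and 162.26), all 3 labelled YapHMKO (137.92, 96.29 and 90.58) and 1 Pard3WT library (51.68). Ahnak fell with PD in YapHMKO from 98.4 and 70.1 CPM to 2.52 and 4.17 (−4.66 ± 0.50, adjusted p = 1.43e-06), and in YapWT stood at 20.0 and 25.5 and at 13.3 and 11.3 (−0.88 ± 0.44, adjusted p = 0.194). It rose with TPPB to 252 and 228 in YapWT (3.40 ± 0.45, adjusted p = 3.56e-05) and from 77.3 and 60.4 to 309 and 395 in Pard3WT (2.35 ± 0.42, adjusted p = 0.00114).

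Cited2, a CBP/p300 partner needed for fetal liver development, had 4 regions at 24.9, 375, 547 and 1210 kb, and whether the farthest acts on it was not tested. The region at 547 kb (chr10:17175278-17175835) was open at E17.5 in all 3 Pard3HMKO (148.45, 238.01 and 179.83) and all 3 libraries labelled YapHMKO (120.95, 178.14 and 147.78) and in no control. Cited2 fell with PD from 35.1 and 65.6 CPM to 14.0 and 13.8 in YapWT (−1.85 ± 0.49, adjusted p = 0.0138) and from 152 and 110 to 23.6 and 51.4 in YapHMKO (−1.80 ± 0.47, adjusted p = 0.0111). TPPB took it to 218 and 279 in YapWT (2.31 ± 0.48, adjusted p = 0.00388) and from 87.0 and 65.0 to 316 and 384 in Pard3WT (2.2 ± 0.47, adjusted p = 0.00664). At E17.5 the genotypes overlapped, at 21.5 and 15.7 in Pard3WT and 12.7 and 16.4 in Pard3HMKO. Btg1, an antiproliferative gene with 3 regions, fell from 255 and 423 CPM to 146 and 106 in YapWT (−1.43 ± 0.31, adjusted p = 0.00325) and was lower in Pard3HMKO at E17.5, 79.8 and 59.0 against 196 and 170 (−1.40 ± 0.18, adjusted p = 7.88e-07).

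Targets of YAP and TEAD were also present. Of 28 listed, Ankrd1, Axl, Crim1, Nt5e, Tgfb2, Wwc1 and Igfbp3 lay nearest to a region. Of 25 tested in the list, 8 fell and 1 rose with PD in YapWT and 10 fell and 2 rose in YapHMKO, but of the 7 nearest genes 0 fell in either, while 1 and 2 rose. Ankrd1 varied widely between replicates: YapWT controls held 7.13 and 53.1 CPM, PD libraries 1.29 and 2.29 (−4.11 ± 2.08, adjusted p = 0.213) and TPPB libraries 558 and 699 (4.39 ± 1.79, adjusted p = 0.160). Pard3WT controls held 3.22 and 106 and PD libraries 1.33 and 1.07. All PD libraries of these lines lay below their controls. No E17.5 library held a read of Ankrd1, yet the region over its start site (chr19:36119668-36120353) scored 269.46, 238.6 and 239.82 in Pard3HMKO and 212.98, 193.55 and 181.29 in the libraries labelled YapHMKO at E17.5. Culture controls scored 79.23, 118.34, 111.89 and 216.29 there, and neither E17.5 control group had a peak.

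Tgfb2, a transforming growth factor, had a region 12472 bases away (chr1:186609900-186610315) with the same pattern: scores of 209.76, 280.85 and 169.01 in Pard3HMKO and 191.11, 253.22 and 209.07 in the libraries labelled YapHMKO, no peak in E17.5 controls, and 59.77, 52.46, 73.61 and 80.78 in the culture controls. Its transcript was at 1.12 CPM or less in all E17.5 libraries. Wwc1, which encodes the Hippo pathway protein KIBRA, rose with PD from 32.8 and 23.2 CPM to 61.0 and 47.8 in YapWT (0.96 ± 0.23, adjusted p = 0.00530) and from 13.47 and 18.3 to 30.2 and 25.9 in YapHMKO (0.82 ± 0.23, adjusted p = 0.0143). It was higher in Pard3HMKO at E17.5, 13.2 and 12.1 against 7.47 and 6.46 (0.86 ± 0.26, adjusted p = 0.0197), where the region inside it at chr11:35955298-35956063 was open in all 3 Pard3HMKO and no Pard3WT library. Nt5e, the ecto-enzyme CD73, rose with PD in YapHMKO from 20.6 and 49.2 to 64.1 and 82.1 (1.06 ± 0.36, adjusted p = 0.0446).

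Of 30 polarity and junction genes, Pard6b, Prkci, Prkcz, Cdh2 and Krt18 lay nearest to a region. Of the 28 tested, 5 fell and 3 rose with PD in YapWT and 2 fell and 7 rose in YapHMKO, and of the 5 nearest genes 1 fell and 1 rose in YapWT and 1 fell and 0 rose in YapHMKO. Prkci, the atypical protein kinase C that binds PAR3 and PAR6, had 3 regions inside its span. The one at chr3:31022729-31023572 scored 138.65, 184.85, 221.51 and 365.45 in controls and 391.31 and 418.78 with TPPB. At E17.5 it scored 270.93, 192.98 and 190.5 in Pard3HMKO and 183.93, 79.91 and 143.44 in the libraries labelled YapHMKO, with no peak in Pard3WT or YapWT. Prkci was not called with PD, at 24.7 and 20.4 CPM in YapWT controls and 22.6 and 30.3 with PD (adjusted p = 0.680), and stood at 15.8 and 13.54 in Pard3HMKO against 8.07 and 9.11 at E17.5 (0.77 ± 0.30, adjusted p = 0.0796). Krt18, a keratin of simple epithelia 13.1 kb from its region, fell with PD from 2002 and 2151 CPM to 787.8 and 848.9 in YapWT (−1.34 ± 0.15, adjusted p = 9.68e-07) and from 2108 and 2182 to 1571 and 1301 in YapHMKO (−0.58 ± 0.14, adjusted p = 0.00581). It rose with TPPB in both lines tested (0.89 ± 0.14 and 0.73 ± 0.14, adjusted p of 0.000257 and 0.00158).

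Among 20 G1 and S phase genes, Ccnd1, Cdk6, Cdkn2b and Rrm2 were nearest genes. In the list 1 fell and 1 rose with PD in YapWT and 5 fell and 0 rose in YapHMKO, and of the 4 nearest genes 1 fell in each line. Cdkn2b, the cell cycle inhibitor p15, fell with PD from 49.5 and 78.2 CPM to 2.09 and 1.53 in YapWT (−5.10 ± 0.74, adjusted p = 0.000123) and from 302 and 229 to 21.3 and 17.0 in YapHMKO (−3.79 ± 0.63, adjusted p = 0.000346), and no E17.5 library held a read of it. Of 14 hepatoblast and fetal genes, Hmga2, Epcam and Cdh6 were nearest genes. Of the 12 tested, 3 fell and 2 rose with PD in YapWT and 3 fell and 3 rose in YapHMKO, and of the 3 nearest genes only Hmga2 fell, in both lines. Hmga2, an architectural chromatin protein of fetal cells, lay 152 kb from its region. It fell from 28.0 and 61.1 CPM to 1.89 and 0.917 in YapWT (−4.91 ± 0.81, adjusted p = 0.000423) and from 164 and 124 to 17.6 and 17.7 in YapHMKO (−3.03 ± 0.66, adjusted p = 0.00347). At E17.5 it was higher in Pard3HMKO, 22.6 and 28.8 against 0.811 and 6.68 (2.72 ± 0.65, adjusted p = 0.00429), though its region had no peak in any E17.5 library.

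No region of the set was nearest to any of 29 genes of hepatocyte maturation, of which 13 rose and 4 fell with PD in YapWT and 22 rose and 0 fell in YapHMKO. With 6.37% of all protein-coding genes nearest to a region, 0 of 29 is near what that share gives.

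Of marker genes of other cells, 0 of 12 erythroid, 0 of 12 macrophage and myeloid, 1 of 10 stellate, 3 of 9 endothelial (33.3%), 2 of 7 biliary (28.6%) and 1 of 5 mesothelial markers were nearest genes. Macrophage and myeloid markers moved with PD in YapWT: summed over 11, they stood at 204 and 407 CPM in controls and 11.9 and 19.7 with PD, and 5 of 10 tested were called lower and 0 higher. In YapHMKO the sums were 72.3 and 54.5 in controls and 43.7 and 70.4 with PD, with 0 called lower and 2 higher. Over all lines, PD libraries held 9.34 to 70.4 CPM (median 25.9) and controls 54.5 to 407 (median 62.8), with none of the 11 at 0 throughout either. Summed over 10 erythroid markers, PD libraries held 58.6 to 375 CPM (median 127) and controls 41.0 to 809 (median 55.8). In YapWT these sums were 41.0 and 55.3 in controls and 375 and 92.6 with PD, with 0 of 9 tested called, and Rhag was at 0 in every PD library. Stellate markers summed to 10.6 to 42.3 CPM with PD and 8.22 to 48.3 in controls, endothelial markers to 1.34 to 7.32 and 1.98 to 8.28, and biliary markers, with Cftr at 0 throughout, to 17.4 to 144 and 33.2 to 133. Mesothelial markers summed to 0 to 0.719 CPM with PD and 0.120 to 8.85 in controls, where Msln and Upk3b were at 0. With TPPB they summed to 17.4 to 25.9 CPM, with Upk3b at 0 throughout. In YapWT TPPB replicate 2 only Wt1 of the 5 genes had reads (18.4 CPM). The part of erythroid, myeloid, stellate and endothelial cells in the results was tested only by leaving out the marked cells, as given with the counts of nearest genes. The biliary list marked no cells. Both YapWT TPPB libraries had reads for fewer than 50% of the mesothelial genes, so that list could mark no cell there. The part of biliary cells, and of mesothelial cells in these libraries, was not tested.

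Closing did not go with a fall of the nearest gene in every case. Called lower in at least 2 of the 4 PD comparisons and higher in none were 165 of the 1151 nearest genes (14.3%, all genes 7.76%), and called higher in at least 2 and lower in none were 127 (11%, all genes 10.0%). Acsl1 and Nrep were named for their PD calls, so their PD values are a description.

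Acsl1, which charges long-chain fatty acids with coenzyme A, lay 40.7 kb from its region. YapWT controls held 144 and 86.6 CPM and PD libraries 1299 and 1096, and YapHMKO 34.3 and 41.2 and 614 and 832. With TPPB it fell to 25.7 and 28.4 in YapWT (−2.10 ± 0.23, adjusted p = 1.83e-06), and at E17.5 it was lower in Pard3HMKO, 318 and 233 against 521 and 542 (−0.95 ± 0.14, adjusted p = 4.16e-06). Nrep, a small neuronal regeneration protein, had a region 59.0 kb away, went from 18.8 and 20.1 CPM to 296 and 208 with PD in YapWT, and fell with TPPB to 7.14 and 4.23 (−1.76 ± 0.40, adjusted p = 0.00625). Man1a, a Golgi mannosidase with 2 regions, was named for a region open with TPPB and in no E17.5 library, and rose from 52.6 and 53.9 CPM to 188 and 153 with PD in YapWT (1.68 ± 0.30, adjusted p = 0.000417). For Acsl1, Nrep and Man1a every PD library of the YapWT line lay above its controls.

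At start sites the picture was sparse in reads. Stc2 and Mtcl1 were named for their PD calls, and their PD values are a description. Stc2 held 108 reads in YapWT controls and 3 with PD, a ratio of 38.8 (95% counting interval 12.9 to 191), at 5.18 and 6.61 and 0.199 and 0.153 CPM. In Pard3WT it went from 3.58 and 11.6 CPM to no read with PD, at least 53.4-fold lower against a floor of 3 reads over the group. Its start-site region (chr11:31368870-31370350) was open at E17.5 in all 3 Pard3HMKO libraries and no Pard3WT library. Mtcl1 held 0 and 6.00 CPM in YapWT controls and no read with PD, at least 18.0-fold lower over the group, which rests on 1 control library. Its region was open in 11 of 12 E17.5 libraries. Camkk2 stood at 3.32 and 16.3 CPM in YapWT controls and 2.19 and 7.49 with PD (adjusted p = 0.425), and Wtip at 33.6 and 11.7 and 7.47 and 10.8 (adjusted p = 0.0734).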

How the data were processed

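ATAC-seq peak lists came from 22 libraries and RNA counts from 106 samples of the series. Per the submitters' processing notes, ATAC reads were handled with Trimmomatic 0.38, Bowtie2 2.2.5, SAMtools 1.3.1, MACS 1.4.2 and HOMER, and RNA reads with Trimmomatic 0.39 and HISAT2 2.1.0. No source used here gives the tool that counted reads. The authors deposited 1 peak list per library, on mm10, with a score per peak of at least 50, and a table of read counts per gene and cell. The counts were deposited as whole numbers and not normalized.

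Overlapping peaks were merged, and a library had a peak over a region when any base overlapped. The nearest of 21887 protein-coding genes was taken by distance to its span. Counts of 2547 of 4264 cells were summed per library; the other 1717 cell columns were not used. The 92 spike-in entries (117 reads) stayed out of 40824 genes. edgeR 4.0.16 in R 4.3.3 (filterByExpr, TMM, quasi-likelihood test, Benjamini-Hochberg adjustment over all genes, 0.05) was fitted to 26 culture libraries (16715 genes) and 44 uncultured ones (18572 genes). The uncultured libraries were those of all Foxa3-Cre and AlfpCre lines, from E11.5 to P14. Adjusted p-values and log2 fold changes ± SE in the text are from these fits. Only the contrast of PD with control in Pard3WT was tried on simulated counts, with the same spread for every gene. The E17.5 fit and the other contrasts were not tried in this way. Sums of counts were divided by TMM-scaled library totals of the genes tested to give CPM. Ratios resting on 3 reads or fewer used plain library totals, and have counting intervals unless a group held 0 reads. Python 3.11.15 with pandas 2.3.3 and scipy 1.17.1 handled regions.

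Members and gene lists were chosen with earlier results of these data known. Genes were named by 5 rules. The first took the 12 members with the highest lowest control score. The second took genes at 10 CPM or more called the same way in at least 2 of 4 PD comparisons. Of these, the 12 lower and 8 higher genes with the largest mean log2 fold change were kept. The third took up to 8 genes nearest to the most members, from 3 members on. The fourth took nearest genes in a list. The fifth took up to 12 members open with TPPB but not at E17.5, and up to 12 of the reverse. Alternatives were a higher score, 50% coverage, equal peak numbers, genes within 10 kb, no filter, DESeq2 1.42.0, only the libraries compared, a replicate block, leaving out 1 library and leaving out cells with markers of other types. Intervals cover counting error only.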

Additional observations from a re-analysis of the deposited data

Results flagged for a closer look

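For 3 nearest genes the effect of PD differed between Pard3HMKO and Pard3WT by a test of the difference itself (edgeR quasi-likelihood interaction term, Benjamini-Hochberg adjustment). The log2 fold change with PD was less negative in Pard3HMKO by 3.49 ± 0.71 for Egfr (adjusted p = 0.0206), by 4.25 ± 0.83 for Phlda1 (adjusted p = 0.0223) and by 6.43 ± 1.38 for Etv5 (adjusted p = 0.0273). The Etv5 value rests on 1 read in the 2 Pard3WT PD libraries. In all 3 genes the Pard3HMKO PD libraries held more CPM than the Pard3WT PD libraries: 8.69 and 22.7 against 0.924 and 1.07 for Egfr, 32.8 and 24.2 against 0.924 and 0.428 for Phlda1, and 7.61 and 7.46 against 0.103 and 0 for Etv5. These genes were chosen with the PD contrast in view, and 13 of the 1151 nearest genes passed this test (11 less negative or more positive in Pard3HMKO, 0.956% against 0.622% of all genes, and 2 the other way, 0.174% against 0.185%).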

How the results depend on the processing

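In 11 of 11 settings of each comparison, the share of nearest genes called lower with PD or U0126 exceeded that of all genes. So did the share called higher with TPPB. The share called higher with PD exceeded it in 9 settings in Pard3WT, 10 in Pard3HMKO, 6 in YapWT and 7 in YapHMKO. With U0126 it did so in 7 (Pard3WT) and 8 (Pard3HMKO). The share called lower with TPPB exceeded it in 1 setting in each line. The counts themselves moved with the number of cells, libraries and genes. With a score of at least 100 there were 769 members, with peaks in 32.6% (Pard3HMKO), 17.1% (YapWT) and 26.6% (labelled YapHMKO) at E17.5. With equal peak numbers there were 764, with 33.3%, 16.7% and 29.8%. When a peak had to cover 50% of the region, E17.5 shares were 4.59% in Pard3WT, 13.7% in Pard3HMKO, 8.34% in YapWT and 20.0% in the libraries labelled YapHMKO.

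Counts listed here are those that moved by over 1.5 times. Without cells that held markers of other types, PD gave 75 lower in Pard3WT (6.81%, all genes 4.39%) and 72 higher in Pard3HMKO (6.53%, all genes 6.53%). In YapWT it gave 58 higher (5.26%, all genes 5.00%) and 81 lower (7.35%, all genes 3.59%), and in YapHMKO 89 higher (8.08%, all genes 8.59%). Lower counts moved less in Pard3HMKO (6.53%, all genes 3.54%) and YapHMKO (12.2%, all genes 7.09%). U0126 then gave 60 lower in Pard3WT (5.44%, all genes 3.22%), and 71 higher (6.44%, all genes 7.09%) and 87 lower (7.89%, all genes 4.14%) in Pard3HMKO. TPPB gave 27 higher (2.45%, all genes 0.663%) and 26 lower (2.36%, all genes 3.39%) in Pard3WT and 35 lower (3.18%, all genes 4.20%) in YapWT. The culture controls of the 2 genotypes gave 13 higher (1.18%, all genes 0.534%) and 19 lower (1.72%, all genes 1.53%). E17.5 gave 3 higher (0.284%, all genes 0.525%) and 13 lower (1.23%, all genes 1.31%). Fitted on each comparison's own libraries alone, PD gave 62 higher (6.45%, all genes 8.04%) and 133 lower (13.8%, all genes 6.01%) in YapWT. In YapHMKO it gave 68 higher (6.77%, all genes 8.56%) and 84 lower (8.36%, all genes 3.82%). TPPB gave 29 lower (2.81%, all genes 3.98%) in Pard3WT, and 55 higher (5.35%, all genes 1.84%) and 28 lower (2.72%, all genes 3.73%) in YapWT. The genotypes in culture gave 16 lower (1.55%, all genes 1.97%). With no filter on low counts, U0126 gave 208 lower (16%, all genes 5.17%) in Pard3WT. TPPB gave 103 higher (7.9%, all genes 2.29%) in Pard3WT and 145 higher (11.1%, all genes 3.41%) in YapWT. The genotypes in culture gave 83 higher (6.37%, all genes 2.07%) and 60 lower (4.6%, all genes 3.13%). DESeq2 gave 77 higher (6.69%, all genes 2.66%) and 80 lower (6.95%, all genes 7.14%) with TPPB in Pard3WT. Between genotypes in culture it gave 54 higher (4.69%, all genes 2.73%) and 63 lower (5.47%, all genes 5.37%). Genes within 10 kb gave 28 higher (2.87%, all genes 1.44%) with TPPB in Pard3WT. Replicate numbers did not pair the samples (correlations of deviations of −0.054 to 0.030). The fit with a replicate block gave 16 higher (1.39%, all genes 0.766%) between genotypes in culture, with no other count moved by over 1.5 times.

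Leaving out 1 library gave 1662 to 2758 members, 64.7% to 82.8% with TPPB, 14.7% to 22.4%, 28.8% to 35.9%, 14.0% to 20.8% and 25.1% to 31.7% at E17.5 in Pard3WT, Pard3HMKO, YapWT and labelled YapHMKO, and 57.6% to 59.0% in a gene span. Nearest genes higher and lower were then 57 to 70 and 62 to 93 with PD in Pard3WT, 65 to 83 and 33 to 75 in Pard3HMKO, 53 to 98 and 117 to 177 in YapWT and 80 to 115 and 93 to 141 in YapHMKO. They were 54 to 70 and 58 to 92 with U0126 in Pard3WT, 80 to 99 and 56 to 129 in Pard3HMKO, 16 to 31 and 27 to 35 with TPPB in Pard3WT, 40 to 74 and 35 to 65 in YapWT, 8 to 21 and 16 to 29 between genotypes in culture and 66 to 88 and 65 to 89 at E17.5. In each of these fits the share called lower with PD or U0126, and higher with TPPB, exceeded that of all genes. Counts of lower genes moved by over 1.5 times without control replicate 1 (86), PD replicate 1 (62) or PD replicate 2 (76) with PD in Pard3WT, without control replicate 2 (33), PD replicate 1 (53) or PD replicate 2 (35) in Pard3HMKO, without control replicate 2 (123), PD replicate 1 (121) or PD replicate 2 (117) in YapWT, and without control replicate 1 (94) or PD replicate 2 (93) in YapHMKO. With U0126 this held without control replicate 1 (84) or U0126 replicate 1 (58) or 2 (70) in Pard3WT, and control replicate 2 (68) or U0126 replicate 2 (56) in Pard3HMKO. Counts of higher genes with TPPB did so without control replicate 1 (23) or 2 (19) or TPPB replicate 2 (16) in Pard3WT, and control replicate 1 (40) or TPPB replicate 1 (49) or 2 (53) in YapWT. The causes were not tested beyond the smaller number of libraries. Of single named genes under all settings, 7345 values kept their call, 299 passed the threshold only there, 557 lost it and 3 reversed: Mtcl1 with PD in YapWT was 0.00 without YapWT control replicate 2 (−9.25 without replicate 1), Sult1c2 with TPPB in YapWT was 0.00 without YapWT control replicate 1 (−7.33 without replicate 2), and Sipa1l2 with PD in YapWT was 7.27 without cells with markers of other types. With PD in YapWT, the calls named in the text for Etv4, Phlda1, Egfr, Itgav, Hmga2, Cdkn2b, Krt18 and Man1a held without any 1 of the 4 libraries. That of Ezr was lost without PD replicate 1, Myc without control replicate 2, Btg1 and Fgfr2 without control replicate 2 or PD replicate 2, Wwc1 without control replicate 2 or PD replicate 1, and Anxa3, Cited2 and Met without control replicate 2 or either PD replicate. In YapHMKO those of Hmga2 and Krt18 were lost without PD replicate 2, Cited2 and Wwc1 without control replicate 1 or PD replicate 1, Etv5 and Nt5e without control replicate 1 or either PD replicate, and Dusp4 without either control or PD replicate 2. At E17.5 that of Hmga2 was lost without Pard3WT replicate 1, Ezr without either replicate 2, Phlda1 without Pard3WT replicate 1 or either Pard3HMKO replicate, and Wwc1 without any 1 library. Longer motif windows and windows at region midpoints were not run. The depth limit is the score of 50 at which the peak lists begin.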

Other observations

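Of 22 listed hepatocyte transcription factors, 4 lay nearest to a region closed by PD, and their RNA mostly passed no test. Foxa1 and Foxa2, forkhead factors that open liver chromatin, had a region inside the gene span and 1 at 298 kb. The Foxa1 region had peaks in 9 of 12 E17.5 libraries and the Foxa2 region in none. Foxa2 stood at 26.1 and 35.9 CPM in YapWT controls and 25.2 and 34.4 with PD (adjusted p = 0.991, edgeR quasi-likelihood test), and Foxa1 at 8.98 and 12.2 and 12.6 and 3.97 (adjusted p = 0.828). Nr5a2, a nuclear receptor of bile acid metabolism, had regions 19.7 kb and 256 kb away, the first open in all 3 Pard3WT and no Pard3HMKO library at E17.5 and the second in no E17.5 library. Its RNA stood at 36.7 and 55.0 CPM in YapWT controls and 27.8 and 33.8 with PD (adjusted p = 0.315).

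Sox9, a factor of bile duct cells and progenitors, lay 166 kb from a region that scored 80.82, 124.49, 148.97 and 201.92 in the culture controls, 205.94 and 276.24 with TPPB and had no E17.5 peak. It fell with PD in YapWT, from 48.5 and 64.5 CPM to 2.19 and 0 (−5.53 ± 1.27, adjusted p = 0.00620), a call that was lost without PD replicate 2. In YapHMKO it stood at 84.1 and 29.6 CPM in controls and 83.3 and 127 with PD (0.89 ± 0.98, adjusted p = 0.580), and the difference between these lines was not tested. Rac1, a small GTPase of the actin cytoskeleton with one of the 12 strongest regions inside its span, fell with PD by less but in both lines, from 227 and 284 CPM to 151 and 150 in YapWT (−0.76 ± 0.15, adjusted p = 0.00107) and from 340 and 287 to 212 and 193 in YapHMKO (−0.63 ± 0.15, adjusted p = 0.00429). The YapHMKO call was lost without control replicate 1 or PD replicate 2. At E17.5 Rac1 was higher in Pard3HMKO, 98.5 and 122 against 74.6 and 80.3 (0.51 ± 0.12, adjusted p = 0.00280), a call lost without Pard3WT replicate 1 or Pard3HMKO replicate 2.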
